A study of Mus musculus with 12 samples.

Results

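The naive pluripotency transcription factors described here are 10 genes, Klf2, Klf4, Klf5, Esrrb, Tbx3, Tfcp2l1, Nr5a2, Zfp42, Tcl1 and Nr0b1. They were chosen by name, and each was followed through all of its probes, found by the gene name in the scanner files or by the current symbol reached through an older symbol or a RefSeq accession. All 10 were on the array and all 10 passed the filter on dim probes, with 18 probes among 28652 kept, out of 19181 genes tested. Tcl1 encodes a kinase coactivator and not a transcription factor, and it is kept in the group under the working name.

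RNA was measured on 12 single-colour arrays from J1, a mouse embryonic stem cell line. Lentiviral infection gave the cells either a non-targeting hairpin (shNT) or a hairpin against Ino80 (shIno80), and RNA was taken at day 2, 4 or 6, which are 48, 96 and 144 hours. Each of the 6 groups held 2 arrays, listed in the series design as biological replicates. The sources used here do not say whether a group came from separate cultures, so that p-values cover only the spread among these arrays, which may be technical. Both hairpin arms came from ESGRO maintenance medium, were moved to M15 medium for infection, and carried a lentivirus. The labels name shRNA-Ino80 as 1 agent, so loss of Ino80 and other effects of that agent cannot be told apart.

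Naive pluripotency is the state of the preimplantation epiblast, which mouse embryonic stem cells keep in culture when leukaemia inhibitory factor (LIF) is present. Klf4, Tfcp2l1 and others respond to LIF through Stat3, Esrrb responds to Wnt signalling through loss of Tcf7l1 repression, and these factors bind each other's enhancers and those of Nanog, Pou5f1 and Sox2. Ino80 is the catalytic subunit of the INO80 remodelling complex, which moves nucleosomes and acts at promoters and enhancers of pluripotency genes.

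To show what lies next to the start sites of genes that moved together or apart, the 250 bases before the start of transcription were read for the members from the RefSeq promoter table, build GRCm38.p6. Windows were held for 8 of the 10 members, 10 windows in all, and for 27025 genes, 32851 windows in all. The windows of a chromosome that holds none of the members were left out of these counts. The 4 windows shown belong to Esrrb and Zfp42, which held the matches, and to Klf4 and Klf2, 2 genes of one family whose readouts are set against each other. Each runs 5′ to 3′ on the strand of its gene, and capitals mark matches to the motifs searched.
Esrrb (chr12:86360867-86361116, plus strand): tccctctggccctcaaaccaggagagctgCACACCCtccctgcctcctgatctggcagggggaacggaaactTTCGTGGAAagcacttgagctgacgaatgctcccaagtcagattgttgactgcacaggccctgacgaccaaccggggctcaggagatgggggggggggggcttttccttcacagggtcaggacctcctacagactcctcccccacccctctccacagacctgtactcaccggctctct
Zfp42 (chr8:43307010-43307259, minus strand): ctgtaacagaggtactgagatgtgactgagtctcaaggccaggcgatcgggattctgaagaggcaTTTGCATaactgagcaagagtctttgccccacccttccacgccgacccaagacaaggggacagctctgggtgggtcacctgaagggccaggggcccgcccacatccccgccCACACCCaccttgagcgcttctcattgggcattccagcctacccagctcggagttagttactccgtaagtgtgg
Klf4 (chr4:55532476-55532725, minus strand): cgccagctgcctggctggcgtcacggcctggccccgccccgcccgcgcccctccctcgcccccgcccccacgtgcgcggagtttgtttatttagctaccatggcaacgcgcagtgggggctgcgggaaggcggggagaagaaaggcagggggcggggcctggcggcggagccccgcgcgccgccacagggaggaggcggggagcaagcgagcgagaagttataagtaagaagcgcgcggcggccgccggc
Klf2 (chr8:72318812-72319061, plus strand): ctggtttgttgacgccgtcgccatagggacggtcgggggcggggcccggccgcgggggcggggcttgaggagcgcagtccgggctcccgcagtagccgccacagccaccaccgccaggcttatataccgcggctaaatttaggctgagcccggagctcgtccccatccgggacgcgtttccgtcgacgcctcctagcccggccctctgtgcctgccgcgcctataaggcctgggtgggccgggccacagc

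Both strands were searched for 5 motifs. The site AAGGTCA, bound by Esrrb and Nr5a2, was in 0 of the 10 member windows and in 4.08% of all windows. The KLF site GGGTGTG was in 2 member windows, those of Esrrb and Zfp42, and in 6.93% of all windows. The T-box site GGTGTGA, which shares 6 letters with the KLF site and can overlap it, was in 0 member windows and in 3.33% of all. The STAT site TTCNNNGAA was in 1 member window, that of Esrrb, and in 7.02% of all, and the octamer-like ATGCAAA was in 1 member window, that of Zfp42, and in 4.12% of all. In the Esrrb window shown, the KLF match began 221 bases before the start and the STAT match 178 bases before it. Another Esrrb window, chr12:86421394-86421643, held no match to any of the motifs. In the Zfp42 window the octamer match began 185 bases and the KLF match 74 bases before the start. The Klf4 and Klf2 windows held none of these letters. The median GC content was 58.0% over the member windows and 52.4% over all windows. These matches are descriptions of the letters in a short window and were set against no binding data.

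Levels are given as log2 of the processed intensity minus the 75th percentile of the array, so that 0 is the 75th percentile and 1 unit is a doubling, and they are compared only for the same probe between arrays. A gene is represented by its brightest probe, and all 10 of these probes were well above background on all 12 arrays, with no member spot saturated or marked as an outlier. That 75th percentile ranged from 1162 to 1643 intensity units, and between 61.84% and 69.13% of the probes of an array were well above background. The deposited scanner files and the deposited value table tie 6 of the 12 arrays to different samples, with positions 2 and 3 of each slide exchanged between shNT and shIno80. Groups here follow the value table, under which the 2 arrays of a group correlated at 0.9905 to 0.9941 over probes, while any other pair reached at most 0.987. With groups taken from the scanner file attachments, no member passed the test on any day. Almost no gene did, since of 19002 tested 1 was lower and 1 higher at day 2, 3 and 4 at day 4, and 0 and 0 at day 6. Position on the slide and group cannot be told apart, and each slide held the 4 arrays of 1 day.

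The targeted gene was lower in every shIno80 array. Ino80 read 2.72 and 2.67 on the shNT arrays of day 2, against 0.56 and 0.85 with shIno80. Its signal was 25.2% of shNT at day 2, 20.3% at day 4 and 23.5% at day 6 (limma adjusted p = 0.000779, 2.55e-05 and 2.62e-05). Its other probes, A_52_P354363 and A_52_P533724, gave 21.7% and 19.5% at day 2. The value table was preferred with the Ino80 signal known, so this is no independent check of the labels.

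Most of the naive factors fell by day 4 of Ino80 knockdown, and 4 of them already at day 2. At day 2, 4 of the 10 members were lower in shIno80 (Klf4, Tbx3, Tfcp2l1 and Nr5a2), against 6.21% of all genes tested called lower by limma at an adjusted p under 0.05 and 6.29% called higher. At day 4, 9 of 10 were lower, against 21.3% of all genes lower and 20.9% higher, and at day 6 again 9 of 10, against 29.5% lower and 21% higher. With the 4 arrays of day 2 fitted alone, none of the 4 passed, and of all genes tested 6 were lower and 0 higher. No member was higher on any day, and Klf5 was the member not called at day 4 and day 6. The median log2 fold change of the 10 members, shIno80 minus shNT, was -0.51 at day 2, -2.77 at day 4 and -2.28 at day 6, while the median of all genes tested was 0.02, -0.05 and -0.14. The arrays of shIno80 all lay below those of shNT for 7 members at day 2, 10 at day 4 and 10 at day 6, beside 21.5%, 40.1% and 45.3% of all genes. In RNA from whole cultures, fewer cells of a type and less RNA per cell cannot be told apart.

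**Figure D1:**
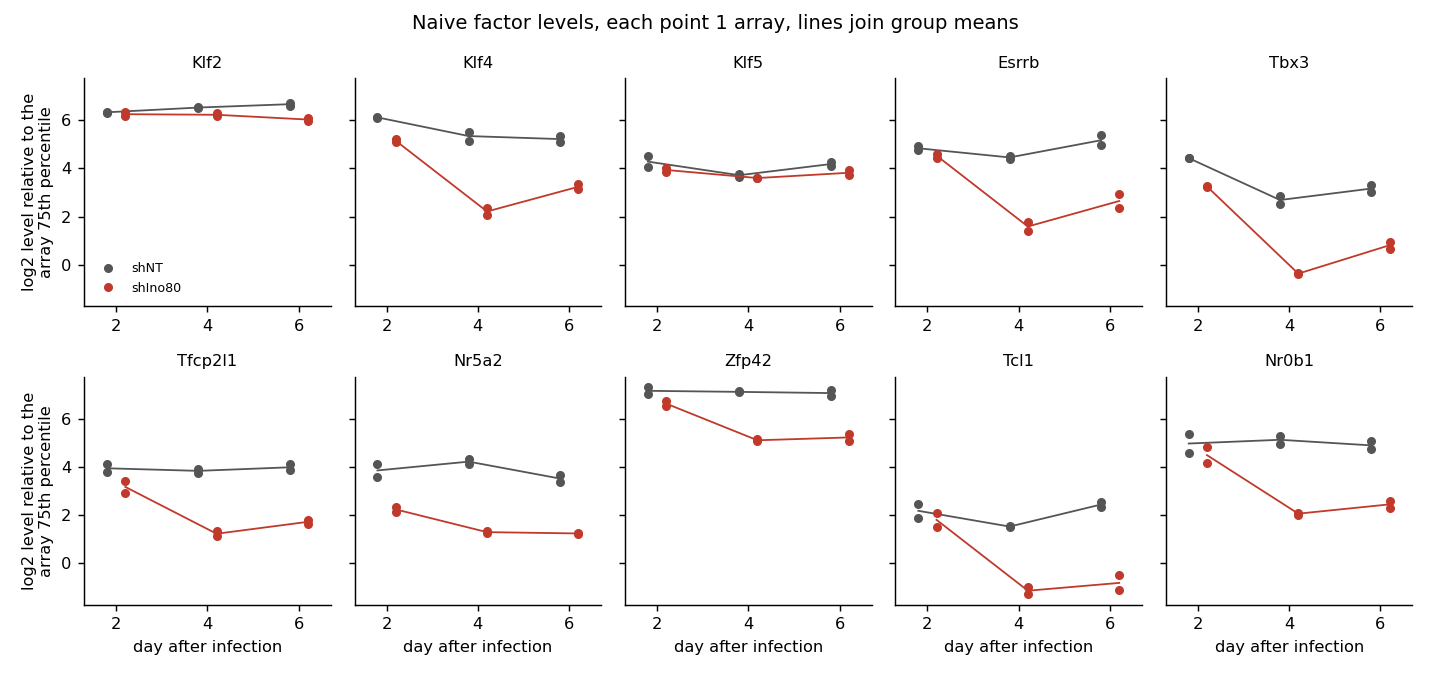
Log2 level relative to the array 75th percentile (vertical axis) by day after infection (horizontal axis) for the 10 naive factors, with each point 1 array and lines joining the means of the 2 arrays of a group. Grey is shNT and red is shIno80. From day 4 the red points of 8 genes lie well below the grey ones, while those of Klf2 and Klf5 stay close to them.

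The 3 days rest on different arrays, and the difference between hairpins itself changed between them. From day 2 to day 4 it became more negative for 8 of the 10 members, all but Klf2 and Klf5, against 7.15% of all genes. Which members made up the 8 depended on the probes used. With all probes of a gene averaged, Klf2 joined them (-0.71, limma adjusted p = 0.0111) and Tbx3 did not pass (-0.31 in place of -1.88, limma adjusted p = 0.68). The Tbx3 mean includes a probe that was not well above background in either group at day 4. From day 4 to day 6 the difference between hairpins changed for 1 member, Klf4, which moved back towards shNT, against 1.55% of all genes with a change in that direction. The day 4 arrays enter both of these comparisons. As a share of its day 4 log2 difference, the day 2 difference was 55.3% for Nr5a2, 38.5% for Tbx3, 31.0% for Klf4 and 29.6% for Tfcp2l1, the 4 members called at day 2. It was 26.4% for Zfp42, 15.7% for Nr0b1, 14.1% for Tcl1 and 10.6% for Esrrb.

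**Figure D2:**
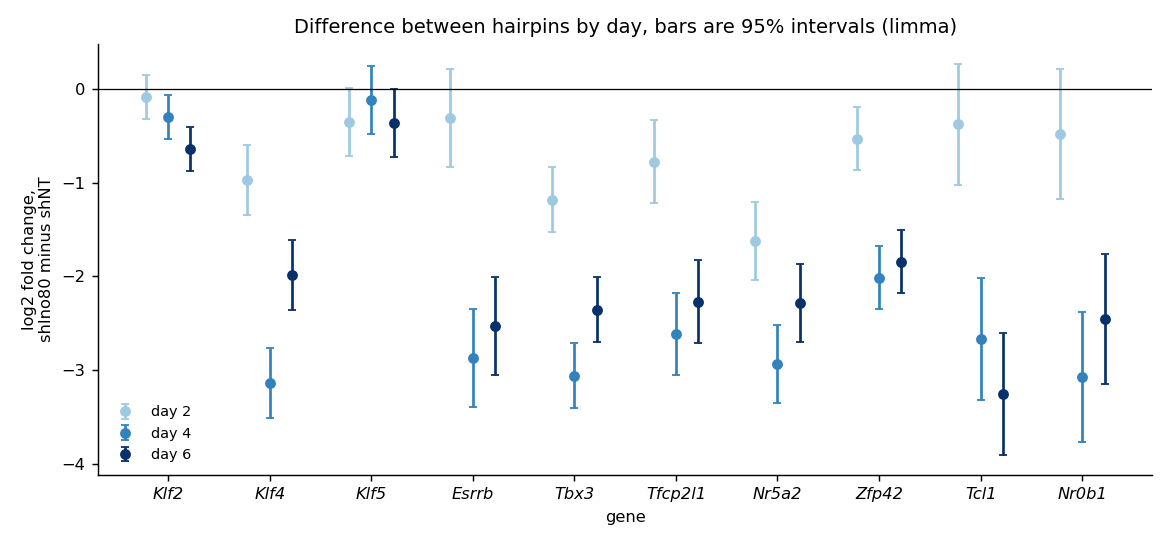
Log2 fold change, shIno80 minus shNT (vertical axis), for each naive factor (horizontal axis) at days 2, 4 and 6, with 95% intervals from the limma fit to 12 arrays. The day 2 points lie between -1.62 for Nr5a2 and -0.08 for Klf2, and at day 4 the points of 8 genes lie between -3.14 and -2.01.

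The Krüppel-like factors Klf2, Klf4 and Klf5 are zinc finger proteins with overlapping targets in embryonic stem cells, and Klf4 is one of the reprogramming factors. Klf4 (probe A_51_P213544, mm7 chr4:55541780-55541839) read 6.10 and 6.15 on the shNT arrays of day 2, against 5.22 and 5.09 with shIno80. At day 4 it was at 5.16 and 5.53 against 2.34 and 2.08, and at day 6 at 5.10 and 5.34 against 3.14 and 3.33. The groups did not overlap on any day, and the lowest levels were those of shIno80 at day 4. Its log2 fold change was -0.97 ± 0.16 (SE, 2 arrays a group) at day 2, -3.14 ± 0.16 at day 4 and -1.98 ± 0.16 at day 6 (limma adjusted p = 0.00875, 7.77e-06 and 3.02e-05). Klf4 thus stood at 11.4% of shNT at day 4 and 25.3% at day 6, and this change of the difference, 1.15 ± 0.23, passed the test (limma adjusted p = 0.0363). That call was near the threshold and was kept in 11 of 22 alternative settings (those other than the scanner file attachments, normexp fitted on all spots and the arrays both records place alike), with adjusted p between 0.00671 and 0.122. It was lost without either shIno80 array of day 2, 4 or 6, without shNT replicate 2 of day 4 or without shNT replicate 1 of day 6, with values from 0.97 to 1.28. The day 2 call of Klf4 was lost without shIno80 replicate 2 of that day (-0.91, limma adjusted p = 0.051).

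Klf5 was the member with no call on any day. Its brighter probe, A_51_P507290, read 4.50 and 4.07 on the shNT arrays of day 2, against 4.03 and 3.85 with shIno80. Values at day 4 were 3.77 and 3.66 against 3.61 and 3.59, and those of day 6 4.09 and 4.27 against 3.72 and 3.92. The shIno80 arrays lay just below those of shNT each day, by less than the test could separate. The 95% interval of the log2 difference ran from -0.71 to 0.02 at day 2, from -0.48 to 0.24 at day 4 and from -0.72 to 0.00 at day 6 (limma adjusted p = 0.208, 0.594 and 0.0898), so a fall as large as that of Klf4 at day 4 lies outside it. The dim second probe, A_52_P54463, gave -0.09, 0.05 and 0.32, with overlapping groups on all 3 days. Without either shNT array of day 2, the day 6 difference of the brighter probe passed the test (-0.36, limma adjusted p = 0.036). The 60 bases of the brighter probe span 9733 bases of genome (mm7 chr14:93704580-93714312), so they join exons, and the dim probe (mm7 chr14:93706061-93706120) lies inside that span.

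Klf2 gave different answers at its 2 probes. The probe that represents it, A_52_P442031 (mm7 chr8:70842757-70842816), read 6.37 and 6.30 on the shNT arrays of day 2, against 6.18 and 6.33 with shIno80. The day 4 values were 6.57 and 6.49 against 6.18 and 6.28, and those of day 6 6.73 and 6.62 against 6.08 and 5.98. There the groups overlapped at day 2 and drew apart slowly. The fold change on the log2 scale was -0.08 ± 0.10 at day 2, -0.30 ± 0.10 at day 4 and -0.64 ± 0.10 at day 6 (limma adjusted p = 0.71, 0.0444 and 0.00107). The call at day 4 was kept in 9 of 22 alternative settings, with adjusted p between 2.43e-05 and 0.507, the lowest with the mean of both probes. With quantile normalization the day 4 value was -0.10, and at day 2 the mean of both probes gave -0.65 (limma adjusted p = 0.0053). Quantile normalization also ended the day 6 call, at -0.26 (limma adjusted p = 0.0976). The day 4 call was lost without any 1 array of day 4 or day 6, with values from -0.35 to -0.25.

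The other Klf2 probe, A_51_P144264 (mm7 chr8:70844133-70844192), starts 1376 bases further along the gene. It read 6.13 and 6.38 on the shNT arrays of day 2, against 4.91 and 5.16 with shIno80. Values at day 4 were 6.56 and 6.59 against 4.24 and 4.07, and those of day 6 6.47 and 6.60 against 4.29 and 4.46. All its shIno80 arrays were below all its shNT arrays. Its log2 fold change was -1.22 ± 0.14, -2.42 ± 0.14 and -2.16 ± 0.14, or 43.0%, 18.7% and 22.4% of shNT (limma over all probes, adjusted p = 0.00185, 1.09e-05 and 1.04e-05). By this probe Klf2 passed the test on all 3 days, beside 5.82%, 21.4% and 28.9% of all probes called lower. Both probes were well above background on all 12 arrays, and both carry the same RefSeq accession. The GC content was 78.3% for the probe that fell little and 43.3% for the one that fell much, whose part in the disagreement was not tested.

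The KLF readouts were set against each other in pairs chosen after their values had been seen, so the differences are given as a description with no test. The second Klf2 probe was lower than the first, relative to shNT, by 1.14, 2.12 and 1.52 on the log2 scale at days 2, 4 and 6. Klf4 lay below the first Klf2 probe in the same way by 0.89, 2.84 and 1.34, and below Klf5 by 0.62, 3.02 and 1.62. Klf4 and the second Klf2 probe differed by 0.25, -0.72 and 0.17. Whether Klf2 fell steeply or stayed nearer to shNT therefore depended on the probe read.

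**Figure D3:**
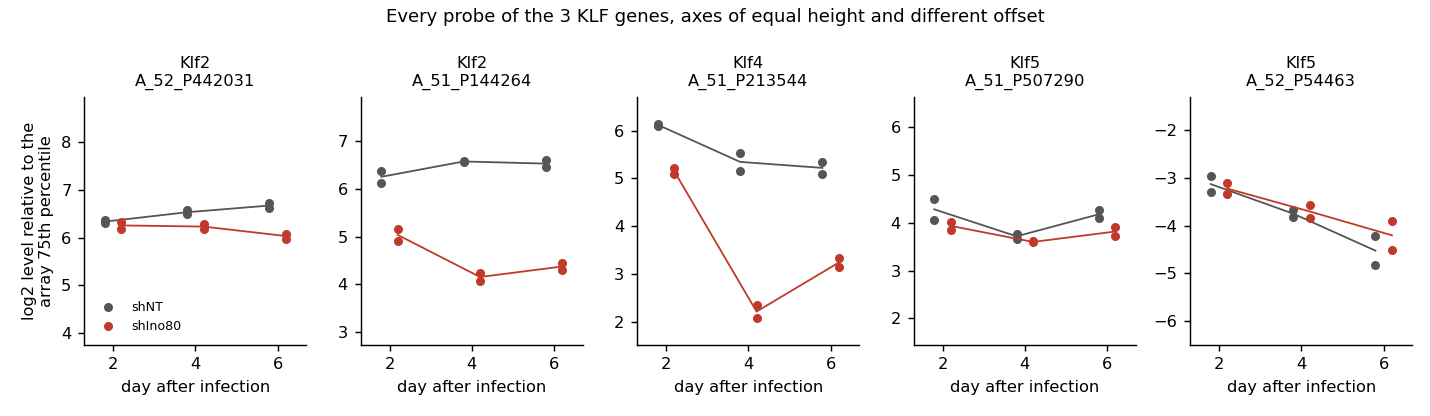
Log2 level relative to the array 75th percentile (vertical axis) by day after infection (horizontal axis) at every probe of Klf2, Klf4 and Klf5, with each point 1 array, lines joining group means, grey for shNT and red for shIno80. All axes cover the same number of log2 units with different offsets. Klf2 falls at A_51_P144264, to 18.7% of shNT at day 4, and stays at 81.2% at A_52_P442031.

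The 60 bases of the first Klf2 probe and of the brighter Klf5 probe are given because each represents its gene in the counts and neither fell as steeply as Klf4. No letters are marked.
Klf2 A_52_P442031: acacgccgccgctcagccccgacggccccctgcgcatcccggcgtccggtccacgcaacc
Klf5 A_51_P507290: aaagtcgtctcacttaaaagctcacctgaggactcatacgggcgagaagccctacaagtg

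Esrrb, Nr5a2 and Nr0b1 are nuclear receptors. Esrrb is an orphan receptor that can stand in for Nanog in self-renewal, Nr5a2 binds a similar site and can take part in Pou5f1 expression, and Nr0b1 (Dax1) is a corepressor without a DNA-binding domain of the usual kind. Esrrb (A_51_P419047, mm7 chr12:84523822-84523881) read 4.93 and 4.75 on the shNT arrays of day 2, against 4.62 and 4.45 with shIno80. It was at 4.52 and 4.39 against 1.77 and 1.40 at day 4, and at 4.96 and 5.38 against 2.35 and 2.94 at day 6. The groups were close at day 2 and far apart afterwards. Here the log2 fold change was -0.31 ± 0.23, -2.87 ± 0.23 and -2.53 ± 0.23, a level of 13.7% of shNT at day 4 and 17.4% at day 6 (limma adjusted p = 0.463, 3.9e-05 and 4.85e-05). Its dim second probe, which starts 6320 bases away, gave -0.35 at day 2, was at least 7.05-fold lower at day 4, where it was not well above background on either shIno80 array, and gave -2.10 at day 6, where 1 of the 2 shIno80 arrays was well above background. The bound sets the mean of shNT against the mean of the shIno80 arrays. Each of these was taken at its own value or, if higher, at the lowest signal well above background on that array. The day 4 test used the measured values and not the bound (limma over all probes, adjusted p = 3e-05).

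Nr5a2 had the largest day 2 difference of the 10 members. Its probe A_51_P514449 (mm7 chr1:136732418-136732477) read 3.60 and 4.12 on the shNT arrays of day 2, against 2.14 and 2.34 with shIno80. The day 4 values were 4.12 and 4.33 against 1.34 and 1.25, and those of day 6 3.39 and 3.65 against 1.24 and 1.24. Every shIno80 array was below every shNT array on each day. On the log2 scale the fold change was -1.62 ± 0.18, -2.93 ± 0.18 and -2.28 ± 0.18, so that the signal was already at 32.5% of shNT at day 2 (limma adjusted p = 0.00188, 1.45e-05 and 2.63e-05). The further fall from day 2 to day 4, -1.31 ± 0.26, passed the test (limma adjusted p = 0.0125), and did not without shIno80 replicate 2 of day 4 (-1.27, limma adjusted p = 0.0512).

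Nr0b1 varied more between replicate arrays at day 2. Its probe A_51_P106455 (mm7 chrX:81582482-81582541) then read 4.58 and 5.38 on the shNT arrays, against 4.17 and 4.82 with shIno80. It was at 4.98 and 5.29 against 2.03 and 2.10 at day 4, and at 4.73 and 5.07 against 2.29 and 2.61 at day 6. The groups overlapped at day 2 only. For Nr0b1 the log2 fold change was -0.48 ± 0.30, -3.07 ± 0.30 and -2.45 ± 0.30 (limma adjusted p = 0.373, 0.000108 and 0.000258), and the change between day 2 and day 4 was the most negative of the 10, -2.59 ± 0.43 (limma adjusted p = 0.00638).

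Tbx3 and Tfcp2l1 link signals to the naive state, Tbx3 as a T-box factor downstream of PI3K and MAPK signalling, Tfcp2l1 as a grainyhead family factor downstream of LIF and Stat3. Tbx3 (A_52_P183368, mm7 chr5:118918450-118918509) read 4.44 and 4.41 on the shNT arrays of day 2, against 3.22 and 3.28 with shIno80. It was at 2.54 and 2.84 against -0.34 and -0.41 at day 4, and at 3.02 and 3.31 against 0.66 and 0.95 at day 6. It was low in shIno80 on all days, and its level in shNT was itself 1.74 lower at day 4 than at day 2, where day and slide cannot be told apart. For Tbx3 the log2 fold change was -1.18 ± 0.15, -3.06 ± 0.15 and -2.36 ± 0.15 (limma adjusted p = 0.00305, 6.48e-06 and 1.05e-05). A second Tbx3 probe, A_52_P389431, was well above background on 3 of the 12 arrays, all of day 2, and gave no call on any day. At day 4 and day 6 it was not well above background in either group, so it cannot show a difference there. With the mean of both probes, which includes these dim values, the Tbx3 day 4 value was -1.53. The change between day 2 and day 4, then -0.31, did not pass the test.

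Tfcp2l1 has 4 probes, listed on the array under its older symbol Tcfcp2l1. The brightest, A_52_P175376 (mm7 chr1:118545588-118545647), read 3.79 and 4.11 on the shNT arrays of day 2, against 2.93 and 3.42 with shIno80. Values at day 4 were 3.76 and 3.93 against 1.13 and 1.32, and those of day 6 3.87 and 4.11 against 1.63 and 1.82. The shNT levels were nearly level over the 3 days, and those of shIno80 dropped by day 4. At this probe the log2 fold change was -0.77 ± 0.19, -2.61 ± 0.19 and -2.27 ± 0.19 (limma adjusted p = 0.0362, 2.81e-05 and 3.65e-05). The day 2 call was kept in 12 of 22 alternative settings, with adjusted p between 0.00582 and 0.233. It was lost without shNT replicate 2 (-0.62) or shIno80 replicate 1 (-0.53) of that day, and, at -0.77, without any 1 array of day 4 or without either shIno80 array of day 6. Further, none of the other 3 probes was called at day 2. At day 4 those 3 probes gave -2.64, -3.46 and -2.23, and at day 6 -2.38, -2.37 and -1.5, all called. The -3.46 is from a probe that was well above background on 1 of the 2 shIno80 arrays.

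Zfp42 (Rex1), a Yy1-like zinc finger protein, and Tcl1, a coactivator of Akt, are widely used marks of undifferentiated cells. Zfp42 (A_51_P413376, mm7 chr8:42080746-42080805) read 7.03 and 7.31 on the shNT arrays of day 2, against 6.54 and 6.74 with shIno80. The day 4 values were 7.11 and 7.15 against 5.15 and 5.08, and those of day 6 6.96 and 7.19 against 5.10 and 5.36. Its shNT means lay within 0.09 of each other over the days, while the groups stood apart on all 3 days. For Zfp42 the log2 fold change was -0.53 ± 0.15, -2.01 ± 0.15 and -1.84 ± 0.15 (limma adjusted p = 0.0509, 2.63e-05 and 2.62e-05), and day 2 passed in 7 of 22 alternative settings, among them without shNT replicate 1 of that day (-0.67). The second probe, A_52_P629849, overlaps the first and gave -0.45, -2.02 and -1.91.

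Tcl1 was the member with the largest difference at day 6. Its probe A_51_P237129 (mm7 chr12:102711536-102711595) read 2.48 and 1.88 on the shNT arrays of day 2, against 2.09 and 1.52 with shIno80. Values at day 4 were 1.5 and 1.55 against -0.99 and -1.30, and those of day 6 2.34 and 2.54 against -1.13 and -0.51. The groups overlapped at day 2 and were far apart from day 4. For Tcl1 the log2 fold change was -0.38 ± 0.28, -2.67 ± 0.28 and -3.26 ± 0.28, or 15.7% of shNT at day 4 and 10.4% at day 6 (limma adjusted p = 0.469, 0.000158 and 4.11e-05). Of the 8 members that fell steeply by day 4, Tcl1 alone had a larger estimate at day 6 than at day 4, and the change of -0.59 ± 0.40 did not pass the test (limma adjusted p = 0.516).

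Levels over days within a hairpin are a description, since day and slide cannot be told apart. In shNT, the mean changed from day 2 to day 6 by -1.27 for Tbx3 and -0.90 for Klf4, and by between -0.34 and 0.34 for the other 8 members. In shIno80 it changed by -2.62 for Tcl1, -2.44 for Tbx3, -2.05 for Nr0b1, -1.91 for Klf4 and -1.89 for Esrrb, and by -0.12 for Klf5 and -0.22 for Klf2. From day 4 to day 6 the shIno80 mean was higher by 1.18 for Tbx3, 1.06 for Esrrb and 1.03 for Klf4, beside 0.48, 0.71 and -0.13 in shNT. Klf4 was higher in shIno80 alone, while Esrrb and Tbx3 were higher with both hairpins. By smaller amounts, Nr0b1 (0.39, beside -0.23 in shNT) and Zfp42 (0.12, beside -0.05) were also higher in shIno80 alone.

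The 3 core factors were set beside the naive factors. Nanog, the homeodomain factor, had log2 fold changes of -0.97 ± 0.30, -3.71 ± 0.30 and -2.72 ± 0.30 (limma adjusted p = 0.0733, 4.23e-05 and 0.000142). Pou5f1 (Oct4) had -0.32 ± 0.17, -1.13 ± 0.17 and -1.85 ± 0.17, and Sox2 had -0.35 ± 0.11, -1.21 ± 0.11 and -1.76 ± 0.11. At day 4 Nanog was at 7.66% of shNT, Pou5f1 at 45.6% and Sox2 at 43.1%, so that the 8 steeply falling members, at 11.4% to 24.8%, lay between them. From day 4 to day 6 the estimates for Pou5f1 and Sox2 moved further down by 0.72 and 0.54, changes that did not pass the test (limma adjusted p = 0.157 and 0.111).

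**Figure D4:**
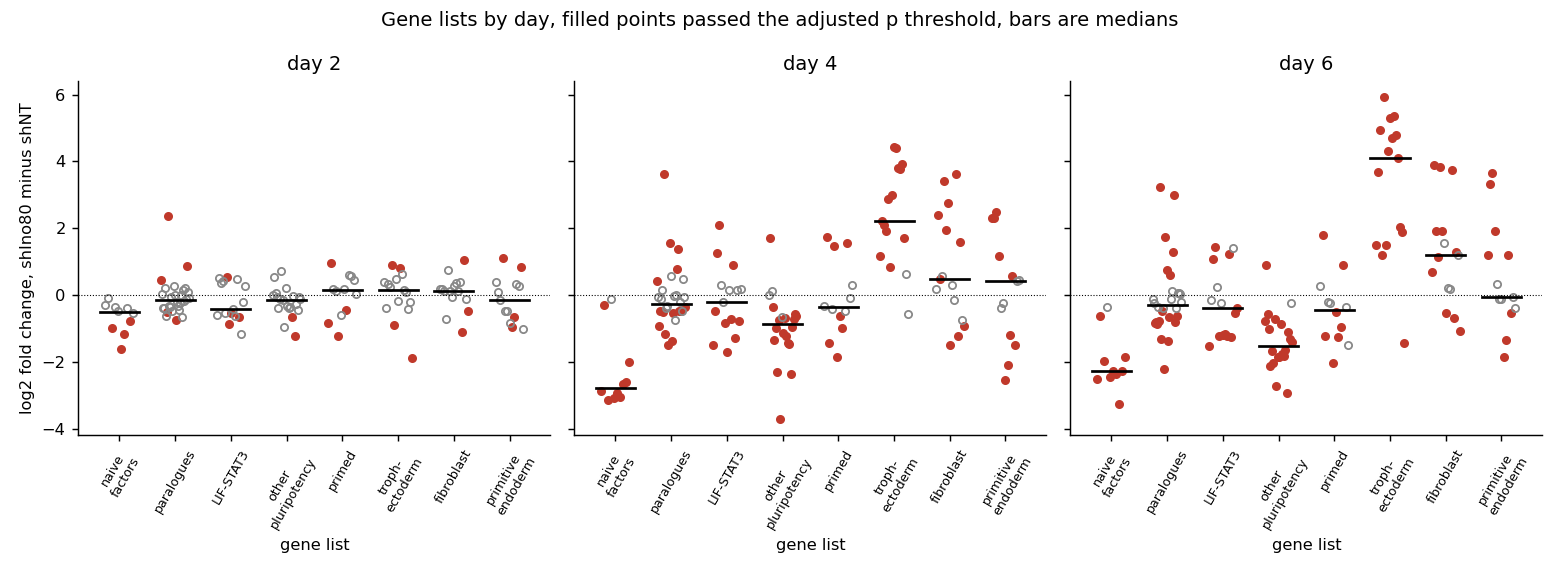
Log2 fold change, shIno80 minus shNT (vertical axis), for the tested genes of 8 lists (horizontal axis) at days 2, 4 and 6, with filled red points for genes past an adjusted p of 0.05, open points for the others and bars for list medians. At day 4 the naive factors have a median of -2.77, the other pluripotency genes -0.86 and the trophectoderm genes 2.23.

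Among 20 other pluripotency genes tested of 22 listed, 2 were lower and 0 higher at day 2, 16 lower and 1 higher at day 4, and 18 lower and 1 higher at day 6. On these days 6.21%, 21.3% and 29.5% of all genes were lower and 6.29%, 20.9% and 21% higher. The median log2 fold change of the list was -0.14, -0.86 and -1.54. Besides Nanog, the genes of this list with the largest mean change were Tet2, a DNA demethylation enzyme (-1.22, -2.36 and -2.94), Tdgf1, a Nodal coreceptor (-0.66, -1.43 and -1.82) and Fbxo15 (-0.38, -1.34 and -2.11). The first of these 3 days was not called for Fbxo15. This list's median was lowest at day 6, that of the naive factors at day 4.

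Paralogues of the members were called in both directions. Of 28 tested of 31 listed, 2 were lower and 3 higher at day 2, 10 lower and 5 higher at day 4, and 11 lower and 6 higher at day 6, with medians of -0.15, -0.27 and -0.31. Over all genes 6.21%, 21.3% and 29.5% were lower and 6.29%, 20.9% and 21% higher on these days, and the share of paralogues called higher at day 4 and day 6 was close to that. Klf3, a repressor of the same family as Klf4, had -0.48, -1.48 and -2.21, the first not called. Klf6 rose, with 1.55 at day 4 and 1.75 at day 6 after 0.27 at day 2, which was not called. Klf14 was not well above background on any shNT array and was at least 2.38-fold, 12.1-fold and 4.75-fold higher in shIno80. For Tbx4 the bounds were 2.32-fold at day 4 and 1.77-fold at day 6 in the same direction, with -0.66 and no call at day 2.

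The LIF-STAT3 list, through which several naive factors are maintained, had 15 genes tested. Of these 3 were lower and 1 higher at day 2, 7 lower and 3 higher at day 4, and 8 lower and 3 higher at day 6. Among all genes 6.21% were lower and 6.29% higher at day 2. These shares were 21.3% and 20.9% at day 4, and 29.5% and 21% at day 6. The share called higher at days 4 and 6 was near that of all genes. Socs3, the feedback inhibitor of the pathway and a direct Stat3 target, fell on all 3 days (-0.67, -1.27 and -1.25). Gbx2, a homeobox target of Stat3, had -0.61, -1.48 and -1.52, the first not called, and Mycn fell on all 3 days (-0.55, -1.69 and -1.21). Jak2, a kinase of the pathway, rose at day 4 and day 6 (2.10 and 1.44) after 0.42 at day 2, which was not called.

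The list of the primed or formative state had calls in both directions. Of 12 tested of 13 listed, 3 were lower and 1 higher at day 2 and 4 lower and 3 higher at day 4. At day 6, 5 were lower and 2 higher. The shares of all genes lower and higher were 6.21% and 6.29% at day 2. They were 21.3% and 20.9% at day 4, and 29.5% and 21% at day 6. With 12 genes these counts do not set the list apart. Cldn6, a tight junction protein, rose on all 3 days (0.97, 1.74 and 1.81), and Pou3f1 (Oct6) rose at day 4 and day 6 (1.57 and 0.89) after 0.57 with no call. Foxd3 fell at day 4 and day 6 (-1.87 and -2.03) after -0.59 with no call, and Nodal fell on all 3 days (-0.45, -0.98 and -1.26).

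Cell type markers also differed between hairpins, and their part in the result was not tested. The 8 embryonic stem cell markers were well above background in every group, and all 8 were lower at day 4 and day 6. On the scale of levels above, their summed signal ranged from 8.81 to 9.0 (log2) in shNT, and in shIno80 from 8.64 to 8.75 at day 2, 8.36 to 8.52 at day 4 and 7.80 to 7.81 at day 6. Over all genes 6.21% were lower and 6.29% higher at day 2. At day 4 the shares were 21.3% and 20.9%, and at day 6 29.5% and 21%. Of 15 trophectoderm markers tested, 2 were lower and 2 higher at day 2, 0 lower and 13 higher at day 4, and 1 lower and 14 higher at day 6. Their summed signal ranged from 3.11 to 3.40 in shNT and 3.32 to 3.69 in shIno80 at day 2, from 3.77 to 3.86 against 7.25 to 7.36 at day 4, and from 4.73 to 4.90 against 9.0 to 9.07 at day 6. Plac1 and Dlx3 were not well above background in any shNT group or in shIno80 at day 2. The genes with the largest mean change were Krt18 (0.82, 4.4 and 4.71), Krt7 (0.62, 3.80 and 5.37), Esx1 (0.90, 2.89 and 5.92) and Hand1 (-0.18, 4.44 and 5.29), with Krt7 and Hand1 not called at day 2.

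Fibroblast markers, for feeder cells, were called in both directions. Of 15 tested, 2 were lower and 1 higher at day 2, 3 lower and 7 higher at day 4, and 3 lower and 8 higher at day 6. Beside these, 6.21% of all genes were lower and 6.29% higher at day 2. The shares were 21.3% and 20.9% at day 4, and 29.5% and 21% at day 6. Their summed signal was 6.02 to 6.08 in shNT and 5.76 to 5.84 in shIno80 at day 2, 5.58 to 5.59 against 5.29 to 5.41 at day 4, and 5.12 to 5.19 against 5.47 to 5.51 at day 6. Lum was not well above background in any shNT group, and Dcn was not in either group at day 2. Col1a1 had 0.18, 2.41 and 3.88 and S100a4 0.40, 3.62 and 3.73, the first of each not called. Dcn had 3.42 at day 4 and 3.82 at day 6, where it was well above background on 1 of the 2 shNT arrays. Lum was at least 1.55-fold higher at day 4 and not called at day 2 or day 6.

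Primitive endoderm markers had calls in both directions. Over all genes 6.21% were lower and 6.29% higher at day 2, 21.3% and 20.9% at day 4, and 29.5% and 21% at day 6. Of 13 markers tested, 2 were lower and 2 higher at day 2, 4 lower and 5 higher at day 4, and 3 lower and 5 higher at day 6. Their summed signal was 2.74 to 2.99 in shNT and 2.94 to 2.99 in shIno80 at day 2, 3.04 to 3.14 against 3.58 to 3.64 at day 4, and 2.90 to 3.06 against 4.54 to 4.62 at day 6. Afp was not well above background in any shNT group. Col4a2 (-0.15, 2.48 and 3.65) and Col4a1 (0.09, 2.31 and 3.31), basement membrane collagens, were called higher at day 4 and day 6. Dab2 rose on all 3 days (1.11, 1.15 and 1.92). Hnf4a had -0.95 at day 2, was at least 1.28-fold lower at day 4, where 1 shNT array and no shIno80 array was well above background, and was measured in neither group at day 6.

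Genes outside the members were ranked over the 12 arrays by Pearson's r with the mean of the 9 members lower at days 4 and 6. Entries named only as predicted genes, clones or accessions were left out. The closest of the rest were Myo1f (r = 0.996), Bckdha (0.993), Lrrc34 (0.990), Kat6b (0.989) and Jam2 (0.989). These r values describe 12 arrays in 6 groups that share slides and hairpins, and no test was made of them. Myo1f, an unconventional myosin, had -0.76, -3.93 and -3.75, and Lrrc34, a leucine-rich repeat protein, -0.95, -4.96 and -3.42. Bckdha, a subunit of branched-chain keto acid dehydrogenase, had -0.66, -1.86 and -1.77, Kat6b, a histone acetyltransferase, -0.59, -1.70 and -1.74, and Jam2, an adhesion protein, -0.32, -3.40 and -2.52, its first day not called. By the same measure Zfp42 (0.992) and Tfcp2l1 (0.990) were nearest to the mean that holds them, and Klf2 (0.675) was farthest, while Klf5, which is not in the mean, had 0.657.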

How the data were processed

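The deposited scanner files hold 1 processed intensity for each spot, background-subtracted and not scaled between arrays, made with Feature Extraction 9.5.3.1 per the file headers. The deposited value table holds log2 values, and its columns gave the groups. They matched the log2 mean signal of the scanner files, before background subtraction, up to a constant for each array. The standard deviation of that difference was under 1e-06. Its column medians were 7.30 to 7.56, and the sources used here do not give how its scale was set. The labels name Cy5, whereas the scanner columns are green.

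Here log2 intensity minus each array's 75th percentile was used. Outlier spots were left out (125 of 41174 probes) and probes well above background on both arrays of a group were kept. limma 3.58.1 in R 4.3.3 fitted 6 group means to 12 arrays (6 residual and 2.19 prior degrees of freedom), with Benjamini-Hochberg adjustment over all genes, or over all probes where stated, and a threshold of 0.05. The fit was tested on simulated data. Genes were named through a RefSeq table of GRCm38.p6, and probe positions are those of the array design (mm7). Members and lists were chosen with earlier results of these data known. Named from each list are up to 4 genes with the largest mean change among those called. Alternatives were other scalings, background correction, the filter on dim probes, flagged spots, the mean of probes, the value table, the scanner file attachments, days fitted alone, a replicate block and leaving out each array.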

Additional observations from a re-analysis of the deposited data

Results flagged for a closer look

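The difference between hairpins, shIno80 minus shNT, was not the same at day 4 as at day 2 for 8 members, by the limma test of the difference itself over all genes. It was more negative at day 4 by these log2 amounts: Nr0b1 -2.59, Esrrb -2.57, Tcl1 -2.29, Klf4 -2.16, Tbx3 -1.88, Tfcp2l1 -1.84, Zfp42 -1.48 and Nr5a2 -1.31. For Klf4 the difference at day 6 was less negative than at day 4 by 1.15. The day 4 arrays enter both comparisons. Groups of 2 arrays are too small to look for outlying arrays.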

How the results depend on the processing

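The choice of record for the groups decides what passes the test, over all genes as for the members. Under the scanner file attachments 19002 genes were tested. Of these, 1 was lower and 1 higher at day 2, 3 and 4 at day 4, and 0 and 0 at day 6. For day 4 minus day 2 the counts were 0 and 1, and for day 6 minus day 4 they were 0 and 0. With groups taken from the scanner file attachments, 0 members were called in each of the 5 comparisons and 26 of 50 member values changed sign, 6 at day 2, 6 at day 4, 9 at day 6, 3 for day 4 minus day 2 and 2 for day 6 minus day 4. Of these, 20 had passed the test with a negative value and were then above 0: Tbx3 0.013, Tfcp2l1 0.41 and Nr5a2 0.36 at day 2, Klf2 0.015, Klf4 0.058, Tbx3 0.11, Tfcp2l1 0.18, Nr5a2 0.059 and Nr0b1 0.20 at day 4, Klf4 0.22, Esrrb 0.51, Tbx3 0.29, Tfcp2l1 0.21, Nr5a2 0.13, Zfp42 0.24, Tcl1 0.41 and Nr0b1 0.33 at day 6, and Klf4 0.10, Tbx3 0.10 and Tcl1 0.45 for day 4 minus day 2. Arrays that both records place alike, 1 of each hairpin a day, were compared with no test (added after seeing the data). Between them every member was below 0 at day 4 and day 6. Day 4 differences ran from -3.12 for Esrrb, with -3.08 for Klf4, to -0.18 for Klf5, and day 6 differences from -2.85 for Tcl1 to -0.17 for Klf5. The lowest 10% of all genes lay below -0.94 at day 4 and -1.23 at day 6, and Klf2 and Klf5 did not. At day 2 Nr0b1 alone was above 0, at 0.24.

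At day 2, where 4 members were lower, the count was 0 with normexp background correction and 0 with the 4 arrays of the day alone. Calls over all genes fell as well, from 1191 lower and 1206 higher to 5 and 0 with normexp and to 6 and 0 with the day alone. For day 4 minus day 2, normexp left 5 lower and 18 higher of all genes, and for day 6 minus day 4 it left 0 and 0. Normexp also gave 0 in place of 8 for day 4 minus day 2; its fitted background reached -898, and with the lowest 0.1% of spots left out of that fit (added after seeing the data) all counts stayed within 1.5 times. For day 6 minus day 4, where 1 member (Klf4) was called, the count was 0 with median scaling, normexp, no filter or the arrays of these days alone, and 3 with the value table, which added Tbx3 (0.87) and Nr5a2 (0.86). Leaving out 1 array gave 3 to 5 members at day 2, 8 to 9 at day 4, 9 to 10 at day 6, 7 to 8 for day 4 minus day 2 and 0 to 1 for day 6 minus day 4; a lone array is then assumed to vary like the other groups. The cause of these changes was not tested. Klf4, Esrrb, Tbx3, Tfcp2l1, Nr5a2, Zfp42, Tcl1 and Nr0b1 were called lower at day 4 and day 6 in all 22 alternatives other than the attachments, the arrays placed alike and normexp on all spots. The balance of calls over all genes also moved with the processing. At day 6, 5665 genes were lower and 4034 higher, against 6130 and 3510 with median scaling. With the value table they were 3438 and 5603. That table differs in background subtraction as well as in scale, and the part of each was not tested. The median of all genes at day 4 went from -0.05 to -0.19 with median scaling.

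The replicate block gave 5, 8 and 9 members lower at days 2, 4 and 6, 8 for day 4 minus day 2 and 1 for day 6 minus day 4. The labels do not tie the numbers to a shared culture, and deviations of same-numbered arrays correlated at 0.30, 0.12 and 0.08 across genes at days 2, 4 and 6. With 2 arrays a group, small differences such as those of Klf5 and of day 2 are near the limit of what the test can separate.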
